A study of Mus musculus with 6 samples.

Results

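The non-collagen matrix of the liver was followed through 46 genes for glycoproteins, proteoglycans, matricellular proteins and lysyl oxidases. They were taken by gene symbol from a deposited table of 22183 genes, and all 46 were found there. Of these, 45 passed the filter on low counts and were tested among 14681 genes. The exception was Mfap5, a microfibril protein, with 0 to 3 reads per library. The genes were grouped by role into 2 adhesive plasma glycoproteins, 8 proteoglycans, 10 basement membrane genes, 10 elastic fibre genes, 12 matricellular genes and 4 lysyl oxidases.

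Collagen fibrils in a scarring liver are spaced and capped by small leucine-rich proteoglycans, and they are linked to each other and to elastin by lysyl oxidases, which oxidise lysine side chains. Elastin is laid down on a scaffold of fibrillin microfibrils with the help of fibulins, whereas laminins, nidogens, perlecan and agrin form the basement membranes of bile ducts and vessels. Matricellular proteins add little strength to the matrix but alter cell adhesion and growth factor signals. Activated stellate cells and portal fibroblasts make most of these proteins, while hepatocytes secrete vitronectin and the plasma form of fibronectin.

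Messenger RNA of mouse liver was sequenced in 6 libraries, 3 labelled PBS and 3 labelled DOX, all of the genotype BucheKI/KI-Hep and all given DDC. Buche, butyrylcholinesterase, is described as overexpressed in hepatocytes and is listed as Bche in the tables. In liver work DDC usually stands for a compound that injures bile ducts, and DOX for doxycycline, an inducer of engineered genes. The labels expand neither, and age, sex, strain, dose, and the promoter that drives the knock-in were not given in the sources used here. All 6 sample titles begin with S2W, which the labels do not explain. All 6 libraries carry the knock-in and DDC labels, so raised Bche and the DOX agent itself cannot be told apart. The labels do not tie the libraries to separate animals, and the spread behind each p-value may therefore be technical.

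Total counts ran from 32476725 to 41921404 per library. Bche averaged 187 ± 16.5 CPM over PBS and 1856 ± 87.7 CPM over DOX libraries (SD, n = 3 each; log2 fold change 3.31, SE 0.14, adjusted p = 1.65e-07), with all DOX libraries above all PBS libraries. Alb, the hepatocyte product albumin, averaged 71321 ± 1185 CPM over PBS and 82253 ± 10944 CPM over DOX libraries (SD, n = 3). Mitochondrially encoded genes took 3.45 to 4.58% of the counts in PBS and 5.11 to 6.81% in DOX libraries, and the part of this difference in the results was not tested. Levels in CPM are normalised read counts scaled by TMM, which corrects for library composition. FPKM are the authors' values per kilobase and serve to compare genes with each other. Single genes were tested by edgeR (quasi-likelihood) and p-values were adjusted by Benjamini-Hochberg over all 14681 genes, and calls are those with adjusted p below 0.05.

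Of the 45 tested matrix genes, 14 fell and 2 rose in DOX libraries. Over all genes tested, 14.0% were called lower and 13.5% higher, against 31.1% and 4.44% of the matrix genes. The median log2 fold change of the matrix genes was -0.20, and that of all genes tested was -0.01. All DOX libraries lay below all PBS libraries for 16 matrix genes and above them for 1, against 22.3% and 21.8% of all genes. The largest falls by fold were those of Tnc, Fbln1, Ccn1, Loxl3, Postn and Sparc, from 1.71-fold for Sparc to 1.9-fold for Tnc. The genes that rose were Aspn, which passed the filter on low counts through its DOX libraries alone, and Fbln5. With totals as the only scaling, 21 fell and 0 rose. That scaling called 30.4% of all genes, 23.4% as lower, and placed their median at -0.16 on the log2 scale.

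**Figure D1:**
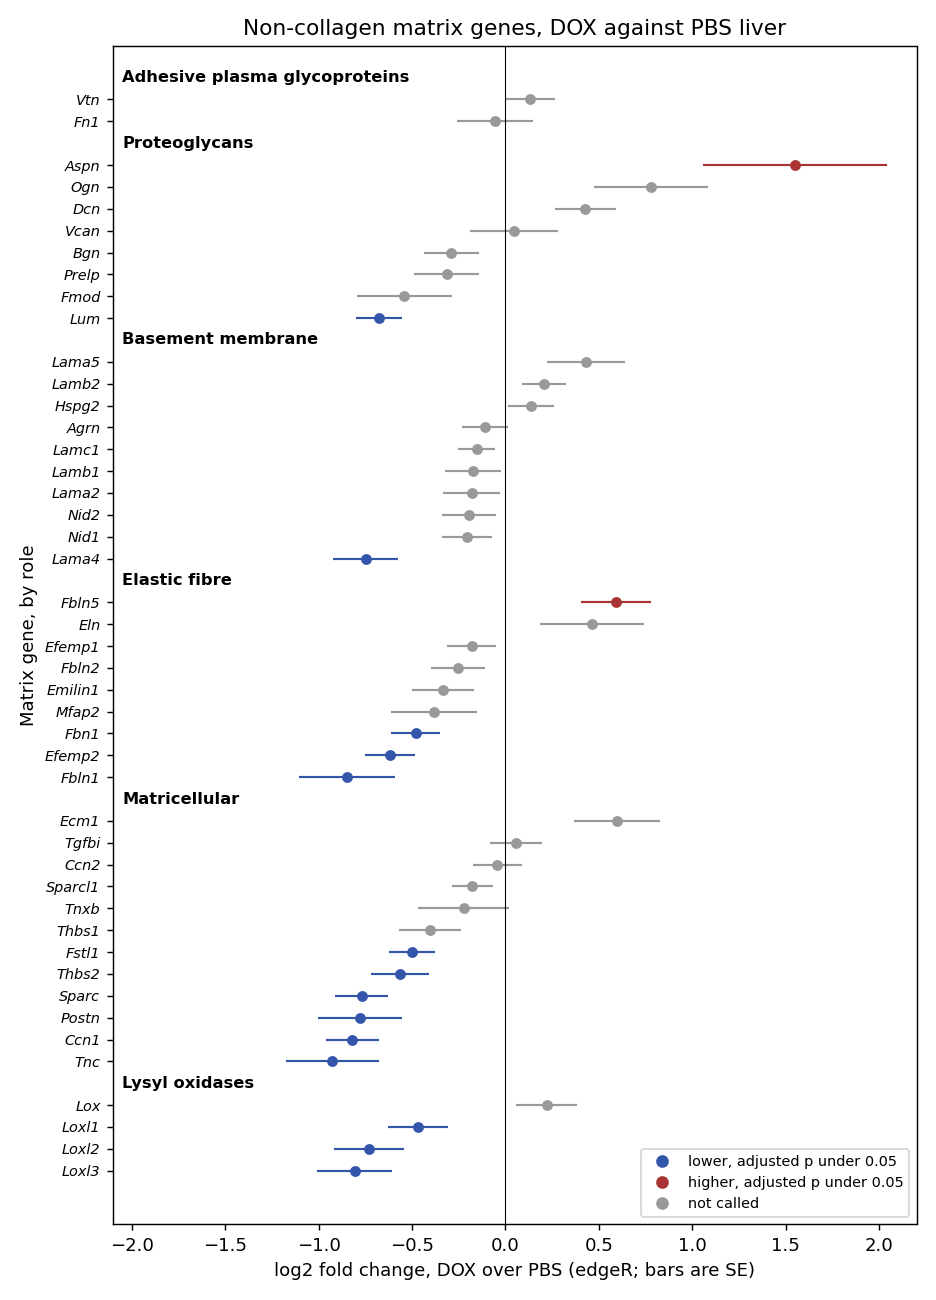
Log2 fold change of DOX over PBS for the 45 tested matrix genes, grouped by role, with SE bars from edgeR. Blue points are the 14 genes called lower, red points the 2 called higher (Aspn and Fbln5) and grey points the genes not called; the blue points lie mostly among matricellular genes and lysyl oxidases.

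The count of falling genes varied with the library omitted, and so did the share of all genes called. Omitting PBS 1, PBS 2 or PBS 3 gave 8, 13 and 9 falling matrix genes, where 10.3%, 8.76% and 9.44% of all genes were called lower. Omitting DOX 1, DOX 2 or DOX 3 gave 11, 12 and 6, where 9.45%, 15.6% and 8.86% of all genes were called lower. Rising matrix genes numbered 2, 0 and 0 with PBS 1, PBS 2 or PBS 3 omitted, where 9.10%, 8.28% and 8.23% of all genes were called higher. They numbered 0, 1 and 4 with DOX 1, DOX 2 or DOX 3 omitted, where 9.17%, 16.2% and 8.05% of all genes were called higher. Fewer genes were called overall in every omission but that of DOX 2, and the counts per gene group given below for single omissions come from these same fits. DOX 3 held the lowest level of 28 of the 45 genes among the DOX libraries, and PBS 1 held the highest level of 29 among the PBS libraries. The median log2 ratio of the matrix genes to the PBS mean was -0.14, -0.23 and -0.28 in DOX 1 to 3, and 0.12, -0.13 and 0.01 in PBS 1 to 3. Called genes that passed without each single library in turn were Lum, Sparc, Ccn1, Efemp2, Lama4 and Loxl3.

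**Figure D2:**
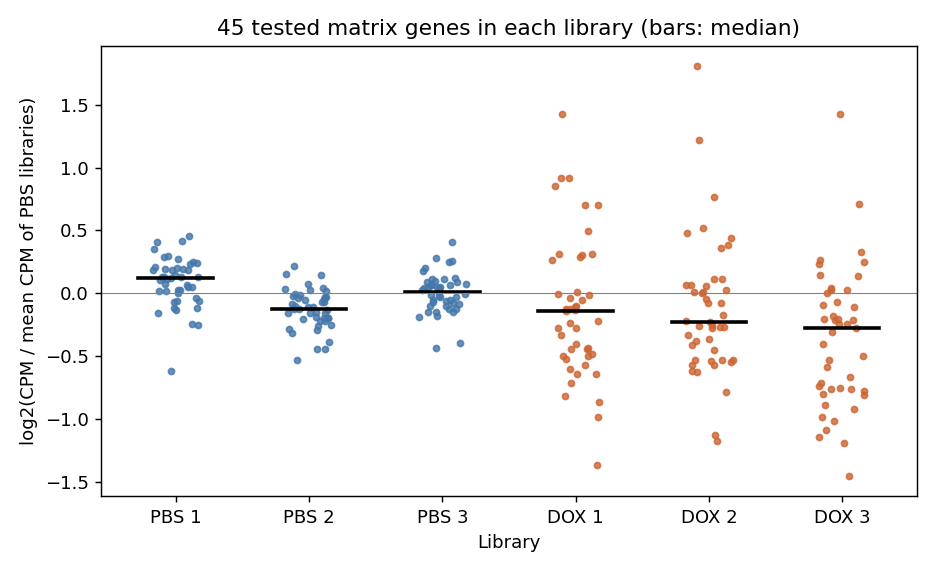
Level of each of the 45 tested matrix genes in each library, as log2 of CPM over the mean CPM of the PBS libraries, with black bars at the median. The medians of the DOX libraries, -0.14, -0.23 and -0.28, lie below those of all PBS libraries. The points of the DOX libraries are spread more widely. PBS libraries are set against their own mean, so the plot cannot compare variability between groups.

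Neither adhesive plasma glycoprotein was called. Vtn, vitronectin, was the most abundant matrix gene per length, at 963 ± 54.7 FPKM in PBS and 947 ± 85.6 FPKM in DOX (SD, n = 3). It stood at 1470, 1619 and 1693 CPM in PBS 1 to 3 and 1943, 1653 and 1641 CPM in DOX 1 to 3, and the groups overlapped (log2 fold change 0.13, adjusted p = 0.497). Fn1, fibronectin, stood at 1321, 1294 and 1724 CPM in PBS 1 to 3 and 1066, 1860 and 1246 CPM in DOX 1 to 3. DOX 2 had the highest and DOX 1 the lowest Fn1 level of all 6 libraries (log2 fold change -0.06, adjusted p = 0.865). The values are totals per gene symbol and do not separate the plasma form of fibronectin from the cellular forms of scar tissue.

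Of the 8 proteoglycans, Lum fell, Aspn rose and 6 were not called. These shares, 12.5% lower and 12.5% higher, were near the 14.0% and 13.5% of all genes tested. Lum encodes lumican, which binds collagen fibrils and limits their thickness. It was measured at 68.7, 75.1 and 59.7 CPM in PBS 1 to 3 and 43.5, 46.9 and 36.6 CPM in DOX 1 to 3. Every DOX library was below every PBS library (log2 fold change -0.68, SE 0.12, adjusted p = 0.00276), a 1.6-fold lower level. Dcn, decorin, binds both collagen and TGF-beta and was the most abundant proteoglycan per length, at 201 ± 35.4 FPKM in PBS and 241 ± 43.2 FPKM in DOX (SD, n = 3). It stood at 471, 376 and 351 CPM in PBS 1 to 3 and 647, 521 and 442 CPM in DOX 1 to 3, so that the groups overlapped only between DOX 3 and PBS 1, and it was not called (log2 fold change 0.43, SE 0.16, adjusted p = 0.0701). Omitting DOX 3 brought the adjusted p to 0.0444 (0.0283 to 0.392 across alternatives).

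Bgn, biglycan, was the second proteoglycan by level, at 361, 290.0 and 349 CPM in PBS 1 to 3 and 310.0, 286 and 221 CPM in DOX 1 to 3, with overlapping groups (log2 fold change -0.29, adjusted p = 0.161). Bgn passed as lower with totals as the only scaling and in the limma fits on FPKM that kept the filter. Its adjusted p ran from 0.0265 to 0.451 across alternatives. Prelp, which anchors basement membranes to connective tissue, and Fmod, fibromodulin, had log2 fold changes of -0.31 and -0.54 (adjusted p = 0.206 and 0.133). Both were lowest in DOX 3. Prelp stood at 81.4, 78.8 and 84.4 CPM in PBS 1 to 3 and 67.2, 83.1 and 46.5 CPM in DOX 1 to 3. Without DOX 2 Prelp was called (adjusted p = 0.0189; 0.0189 to 0.532 across alternatives). Vcan, the large hyaluronan-binding proteoglycan versican, lay between 2.22 and 3.21 CPM in all libraries (log2 fold change 0.04, adjusted p = 0.911).

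Aspn encodes asporin, a collagen-binding relative of decorin, and was near the lower limit of measurement, with 5, 9 and 9 reads in PBS 1 to 3 and 18, 21 and 15 in DOX 1 to 3. This came to 0.115, 0.205 and 0.211 CPM in PBS 1 to 3 and 0.476, 0.619 and 0.476 CPM in DOX 1 to 3, all DOX libraries above all PBS libraries (log2 fold change 1.55, SE 0.49, adjusted p = 0.0361). The call rested on all 6 libraries. Single omissions gave adjusted p = 0.126 with PBS 1 omitted, 0.0861 with PBS 2 omitted, 0.0743 with PBS 3 omitted, 0.079 with DOX 1 omitted, 0.0867 with DOX 2 omitted and 0.0763 with DOX 3 omitted (0.0165 to 0.126 across alternatives). Ogn, osteoglycin, stood at 2.28, 1.67 and 2.06 CPM in PBS 1 to 3 and 3.63, 4.66 and 2 CPM in DOX 1 to 3 and was not called (log2 fold change 0.78, SE 0.30, adjusted p = 0.0774). DOX 1 and DOX 2 were above all PBS libraries and DOX 3 was within their range. Without DOX 3 it passed (adjusted p = 0.0224; 0.0224 to 0.296 across alternatives).

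The upstream sequences of Aspn and Ogn are shown because these genes lie near each other on chromosome 13 and had the largest positive log2 fold changes among the proteoglycans. They are the 250 bases before the RefSeq start in GRCm38.p6, at chr13:49544193-49544442 (plus strand) for Aspn and chr13:49607765-49608014 (plus strand) for Ogn. Capitals mark TATAAA and the TEAD factor motif GGAATG, searched on both strands. Neither motif contains the other.
Aspn: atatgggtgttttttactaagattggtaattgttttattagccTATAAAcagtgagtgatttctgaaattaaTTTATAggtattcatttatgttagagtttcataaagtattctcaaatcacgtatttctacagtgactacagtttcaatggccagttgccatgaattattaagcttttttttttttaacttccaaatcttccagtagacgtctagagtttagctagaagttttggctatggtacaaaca
Ogn: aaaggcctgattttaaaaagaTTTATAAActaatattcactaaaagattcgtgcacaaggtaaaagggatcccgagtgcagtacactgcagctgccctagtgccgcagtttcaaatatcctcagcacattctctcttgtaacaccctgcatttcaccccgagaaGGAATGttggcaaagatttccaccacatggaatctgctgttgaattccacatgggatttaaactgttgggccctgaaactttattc
In Aspn, matches to TATAAA began 207 bases before the start and, in reverse orientation, 178 bases before it. In Ogn they began 229 and 227 bases before the start, where they overlap on opposite strands. A TEAD match began 86 bases before the start of Ogn. Windows of the same length held TATAAA in 13.0% and the TEAD motif in 12.6% of 27025 genes. RefSeq windows were matched for 31 of the 46 genes, too few to give a share over the matrix genes.

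Among the 10 basement membrane genes Lama4 fell and 9 were not called. That is 10% lower and 0% higher, not above the 14.0% and 13.5% of all genes tested. Lama4 is the laminin alpha chain typical of small vessels, and it was measured at 9.84, 9.45 and 9.72 CPM in PBS 1 to 3 and 6.72, 4.42 and 6.09 CPM in DOX 1 to 3. The PBS libraries lay close together and all DOX libraries were below them (log2 fold change -0.75, SE 0.17, adjusted p = 0.00907), 1.68-fold lower. Lama5, the alpha chain of mature epithelial and vascular basement membranes, stood at 44, 36.3 and 27.2 CPM in PBS 1 to 3 and 50.5, 35.9 and 58.7 CPM in DOX 1 to 3. Its groups overlapped (log2 fold change 0.43, adjusted p = 0.16), and without DOX 2, its lowest DOX library, it was called higher (adjusted p = 0.0238; 0.0238 to 0.536 across alternatives). Lama2 had a log2 fold change of -0.18 (adjusted p = 0.406).

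Nid1, nidogen, which joins laminin to type IV collagen networks, was the most abundant basement membrane gene per length, at 34.2 ± 2.7 FPKM in PBS and 26.6 ± 4.11 FPKM in DOX (SD, n = 3). It stood at 173, 198 and 209 CPM in PBS 1 to 3 and 142, 195 and 167 CPM in DOX 1 to 3, with overlapping groups (log2 fold change -0.20, adjusted p = 0.278). It was not called, and neither was its relative Nid2 (-0.19, adjusted p = 0.339). The laminin beta and gamma chains Lamb1, Lamb2 and Lamc1 had log2 fold changes of -0.17, 0.21 and -0.15, and the heparan sulfate proteoglycans Hspg2, perlecan, and Agrn, agrin, of 0.14 and -0.11. All had overlapping groups. Lamc1 passed as lower with totals as the only scaling and in the limma fits on FPKM that kept the filter (adjusted p 0.0274 to 0.563 across alternatives). The summed level of the 10 genes was 499 to 523 CPM in PBS and 484 to 491 CPM in DOX libraries.

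Of 9 tested elastic fibre genes, 3 fell and 1 rose (33.3% and 11.1%, against 14.0% and 13.5% of all genes). Efemp2 encodes a fibulin that brings lysyl oxidase to elastin. It was measured at 14.8, 13.3 and 13.3 CPM in PBS 1 to 3 and 9.23, 9.52 and 8.13 CPM in DOX 1 to 3. The groups were well apart (log2 fold change -0.62, SE 0.13, adjusted p = 0.00617), with a 1.53-fold lower level in DOX. Fbn1, the main fibrillin of microfibrils, stood at 42.5, 37.6 and 43 CPM in PBS 1 to 3 and 30.2, 33.9 and 24.1 CPM in DOX 1 to 3, with all DOX libraries below PBS (log2 fold change -0.48, SE 0.13, adjusted p = 0.0184). Single omissions ended the call, with adjusted p = 0.0604 with PBS 1 omitted, 0.0654 with PBS 3 omitted and 0.0702 with DOX 3 omitted (0.00193 to 0.0702 across alternatives). Fbln1, a fibulin of elastic fibres and basement membranes, stood at 9.17, 9.17 and 14.5 CPM in PBS 1 to 3 and 7.83, 6.37 and 4 CPM in DOX 1 to 3. PBS 3 was the highest and DOX 3 the lowest (log2 fold change -0.85, SE 0.26, adjusted p = 0.0331), and omissions gave adjusted p = 0.124 with PBS 3 omitted, 0.0794 with DOX 2 omitted and 0.0863 with DOX 3 omitted (0.00619 to 0.124 across alternatives).

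Fbln5, a fibulin that tethers elastic fibres to integrins, went the other way, at 19.6, 17 and 12 CPM in PBS 1 to 3 and 26.3, 27.5 and 19.4 CPM in DOX 1 to 3. The lowest DOX library, DOX 3, fell just below PBS 1, so the groups overlapped (log2 fold change 0.59, SE 0.19, adjusted p = 0.0365). Single omissions ended the call, with adjusted p = 0.0785 with PBS 2 omitted, 0.111 with PBS 3 omitted, 0.123 with DOX 1 omitted and 0.0891 with DOX 2 omitted (0.00701 to 0.253 across alternatives). Totals as the only scaling gave adjusted p = 0.116. Eln, elastin itself, stood at 33.2, 29.4 and 32.1 CPM in PBS 1 to 3 and 59.7, 45.3 and 25.5 CPM in DOX 1 to 3. DOX 1 and DOX 2 were above and DOX 3 below all PBS libraries (log2 fold change 0.46, adjusted p = 0.262), and without DOX 3 Eln was called higher (adjusted p = 0.00797; 0.00797 to 0.63 across alternatives). Emilin1, an elastin-binding glycoprotein, was the most abundant gene of the class per length, at 14.8 ± 1.57 FPKM in PBS and 10.5 ± 2.33 FPKM in DOX (SD, n = 3). It stood at 60.1, 49 and 53.8 CPM in PBS 1 to 3 and 49.7, 48.2 and 31.2 CPM in DOX 1 to 3, with overlapping groups (log2 fold change -0.33, adjusted p = 0.152). Emilin1 passed as lower with totals as the only scaling and with limma on log2(FPKM + 0.1), and its adjusted p ran from 0.0318 to 0.425 across alternatives. Mfap2, Fbln2 and Efemp1 had log2 fold changes of -0.38, -0.25 and -0.18 and were not called. For Mfap2, all DOX libraries were below all PBS libraries. Mfap2 passed in the limma fits on FPKM that kept the filter (0.0403 to 0.438 across alternatives). Fbln2 passed with totals as the only scaling (0.048 to 0.569 across alternatives). Omitting PBS 3 or DOX 3 left 1 elastic fibre gene that fell.

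Matricellular genes held 6 of the 14 falls and no rise among 12 tested (50% lower, against 14.0% of all genes). Sparc, a collagen-binding glycoprotein of remodelling tissue, was the most abundant of them per length, at 153 ± 14.2 FPKM in PBS and 80.1 ± 12.2 FPKM in DOX (SD, n = 3). It was measured at 418, 355 and 374 CPM in PBS 1 to 3 and 245, 247 and 179.6 CPM in DOX 1 to 3. Every DOX library was below every PBS library (log2 fold change -0.77, SE 0.14, adjusted p = 0.00315). Its relative Sparcl1 stood at 69.2, 80.4 and 67.6 CPM in PBS 1 to 3 and 65.5, 57.5 and 68.9 CPM in DOX 1 to 3. Sparcl1 was not called (log2 fold change -0.18, adjusted p = 0.253), though it passed with totals as the only scaling (adjusted p = 0.0496).

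Ccn1, an integrin-binding protein induced by growth factors and by mechanical strain through YAP and TEAD factors, stood at 44.1, 47.6 and 51.6 CPM in PBS 1 to 3 and 31.4, 21.2 and 28.7 CPM in DOX 1 to 3. The lowest PBS library was above the highest DOX library (log2 fold change -0.82, SE 0.14, adjusted p = 0.00223), and the level in DOX was 1.76-fold lower. Ccn2, its fibrogenic relative also known as connective tissue growth factor, stood at 119, 92 and 97.8 CPM in PBS 1 to 3 and 100.3, 86.1 and 113 CPM in DOX 1 to 3. Here the groups overlapped (log2 fold change -0.04, adjusted p = 0.834). The SE of the log2 fold change was 0.13 for Ccn2 and 0.14 for Ccn1.

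The upstream window of Ccn1 is shown with that of Thbs2 because, among genes that fell, these had a matched window of a single listed RefSeq start that overlaps no annotated exon. They are the 250 bases before the RefSeq start in GRCm38.p6, at chr3:145649986-145650235 (minus strand) and chr17:14694263-14694512 (minus strand), with TATAAA and the TEAD motif in capitals.
Ccn1: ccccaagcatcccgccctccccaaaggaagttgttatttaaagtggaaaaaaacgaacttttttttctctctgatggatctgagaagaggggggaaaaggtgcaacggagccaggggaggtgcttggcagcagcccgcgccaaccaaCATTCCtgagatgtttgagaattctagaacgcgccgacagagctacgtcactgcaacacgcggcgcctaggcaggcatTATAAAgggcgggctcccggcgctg
Thbs2: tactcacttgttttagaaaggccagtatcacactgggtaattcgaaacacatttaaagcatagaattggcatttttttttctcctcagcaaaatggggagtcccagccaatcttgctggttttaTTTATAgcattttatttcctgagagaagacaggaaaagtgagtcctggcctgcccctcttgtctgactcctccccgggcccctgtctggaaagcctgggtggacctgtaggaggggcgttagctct
In Ccn1 the TEAD motif lies in reverse orientation 103 bases before the start, and TATAAA begins 25 bases before it. In Thbs2 TATAAA lies in reverse orientation, as TTTATA, 126 bases before the start, and no GGAATG was found in this window. These matches are descriptions of the sequence and do not show that a factor was bound in these samples.

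Thbs2, a thrombospondin that limits vessel growth, was measured at 19.3, 16.2 and 24.1 CPM in PBS 1 to 3 and 14, 14.5 and 11.7 CPM in DOX 1 to 3. All DOX libraries were below all PBS libraries (log2 fold change -0.57, SE 0.16, adjusted p = 0.0203), and omissions gave adjusted p = 0.0971 with PBS 3 omitted and 0.0812 with DOX 3 omitted (0.00174 to 0.0971 across alternatives). Thbs1, the thrombospondin that activates latent TGF-beta, stood at 50.5, 40.4 and 47.9 CPM in PBS 1 to 3 and 25.4, 39.4 and 40.1 CPM in DOX 1 to 3. The groups did not overlap either, by a margin of under 1 CPM, and the gene was not called (log2 fold change -0.41, SE 0.17, adjusted p = 0.0929).

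Tnc, tenascin-C, and Postn, periostin, are matricellular proteins of wounds and of active scars. Tnc was measured at 13.9, 7.96 and 9.41 CPM in PBS 1 to 3 and 4.05, 7.16 and 5.27 CPM in DOX 1 to 3, and its groups did not overlap (log2 fold change -0.93, SE 0.25, adjusted p = 0.0189). Postn was measured at 61.9, 34.3 and 43.9 CPM in PBS 1 to 3 and 28.4, 32 and 21.1 CPM in DOX 1 to 3, with a wide spread among PBS libraries (log2 fold change -0.78, SE 0.23, adjusted p = 0.0336). PBS 1 was the highest library for both. Omissions gave adjusted p = 0.0723 with PBS 1 omitted, 0.0706 with DOX 1 omitted and 0.062 with DOX 3 omitted for Tnc (0.0016 to 0.0723 across alternatives). For Postn they gave 0.0651 with PBS 1 omitted, 0.0728 with PBS 3 omitted, 0.115 with DOX 1 omitted, 0.0583 with DOX 2 omitted and 0.0812 with DOX 3 omitted (0.00204 to 0.115 across alternatives), and only leaving out PBS 2 kept its call among the 6 omissions. Tnxb, a tenascin of loose connective tissue, overlapped between groups (log2 fold change -0.22, adjusted p = 0.528).

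Fstl1, a secreted follistatin-like glycoprotein of stromal cells, stood at 87.3, 68.4 and 73.4 CPM in PBS 1 to 3 and 57.8, 57.4 and 46.6 CPM in DOX 1 to 3, with DOX below PBS throughout (log2 fold change -0.50, SE 0.12, adjusted p = 0.0122). Single omissions ended the call, with adjusted p = 0.0593 with PBS 1 omitted and 0.0551 with DOX 3 omitted (0.000769 to 0.0593 across alternatives). Ecm1 keeps TGF-beta latent and is made by hepatocytes. It stood at 109, 59.1 and 87.8 CPM in PBS 1 to 3 and 160.5, 119 and 107 CPM in DOX 1 to 3, and PBS 1 lay above DOX 3 (log2 fold change 0.60, adjusted p = 0.0909). Without PBS 1 Ecm1 was called higher (adjusted p = 0.0286; 0.0136 to 0.274 across alternatives). Tgfbi, an adhesion protein induced by TGF-beta, lay between 126 and 175 CPM in all libraries (log2 fold change 0.06, adjusted p = 0.8). Omitting PBS 1 left 3 matricellular genes that fell, and omitting DOX 3 left 2.

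Of the 4 lysyl oxidases, Loxl1, Loxl2 and Loxl3 fell and Lox did not pass (75% lower, against 14.0% of all genes). Loxl2, which crosslinks fibrillar and basement membrane collagen, was measured at 27.3, 19.4 and 20.4 CPM in PBS 1 to 3 and 11.3, 17.4 and 11.8 CPM in DOX 1 to 3. PBS 1 was the highest library and DOX 2 came closest to the PBS group (log2 fold change -0.73, SE 0.19, adjusted p = 0.0152). Single omissions ended the call, with adjusted p = 0.0578 with PBS 1 omitted, 0.064 with DOX 1 omitted and 0.0581 with DOX 3 omitted (0.000597 to 0.064 across alternatives). Loxl3 was the least abundant of the family per length, at 1.2 ± 0.0616 FPKM in PBS and 0.612 ± 0.0725 FPKM in DOX (SD, n = 3). It stood at 4.77, 4.56 and 4.52 CPM in PBS 1 to 3 and 2.62, 3.01 and 2.29 CPM in DOX 1 to 3, and the groups were far apart relative to their spread (log2 fold change -0.81, SE 0.20, adjusted p = 0.0126).

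Loxl1, the enzyme of elastic fibre upkeep, stood at 15, 14.5 and 14.6 CPM in PBS 1 to 3 and 13.4, 9.87 and 8.57 CPM in DOX 1 to 3. The PBS libraries lay within 1 CPM of each other and DOX 1 came close to them (log2 fold change -0.47, SE 0.16, adjusted p = 0.0499). This call was marginal, and omissions gave adjusted p = 0.117 with PBS 1 omitted, 0.104 with PBS 2 omitted, 0.112 with PBS 3 omitted, 0.0998 with DOX 2 omitted and 0.169 with DOX 3 omitted (0.013 to 0.169 across alternatives). Lox itself stood at 18, 12.9 and 14.4 CPM in PBS 1 to 3 and 18.2, 20.5 and 14.1 CPM in DOX 1 to 3, with overlapping groups (log2 fold change 0.22, SE 0.16, adjusted p = 0.339). By group means per length the family stood in the order Loxl1, Loxl2, Lox and Loxl3 in PBS, at 4.64, 4.04, 3.33 and 1.2 FPKM. Lox had the highest mean in DOX, 3.47 FPKM against 3, 2.18 and 0.612 for Loxl1, Loxl2 and Loxl3. Single libraries did not all keep these orders. Loxl2 (4.98 FPKM) was above Loxl1 (4.8 FPKM) in PBS 1, and Loxl1 (3.75 FPKM) was above Lox (3.56 FPKM) in DOX 1. Omitting PBS 1 or DOX 3 left 1 lysyl oxidase that fell.

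**Figure D3:**
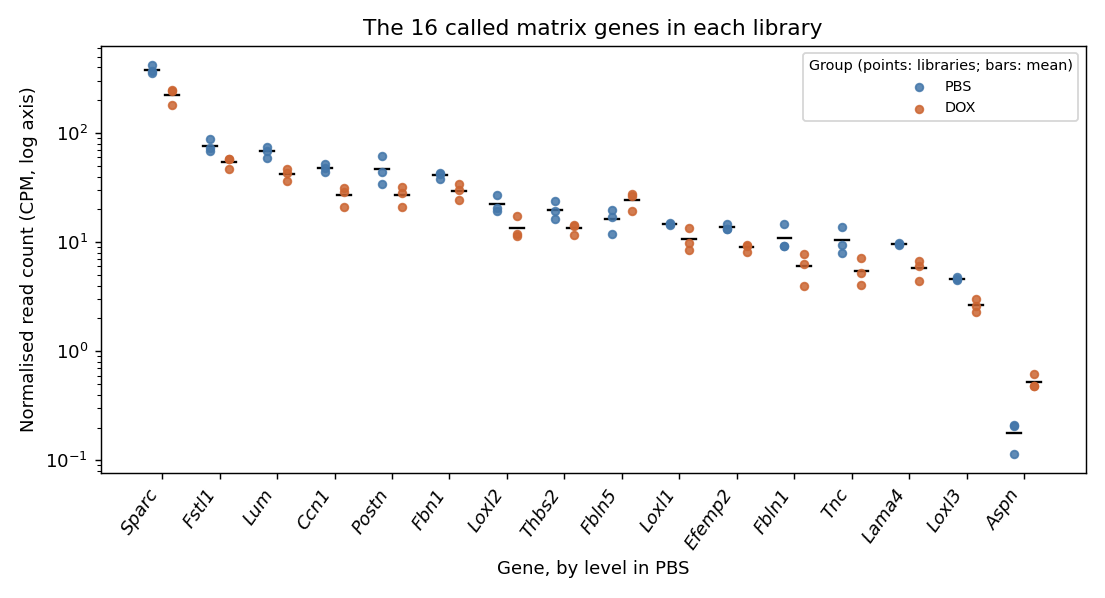
Normalised read count (CPM, log axis) of the 16 called matrix genes in each library, ordered by level in PBS, with black bars at the group means. Fbln5 and Aspn are the genes with higher DOX means; the groups are apart for all genes shown but Fbln5, where DOX 3 lies just below PBS 1.

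Ratios of related genes within a library do not depend on how libraries are scaled. For 10 pairs chosen after the values were seen, they are given as a description without a test. In each pair the first gene was called lower and the second was not, so lower ratios in DOX follow largely from the choice. The ratio of Loxl2 to Lox FPKM was 1.24, 1.23 and 1.16 in PBS 1 to 3 and 0.509, 0.693 and 0.682 in DOX 1 to 3. It exceeded 1 in every PBS library and stayed under 1 in every DOX library. The ratio of Loxl3 to Lox was 0.312, 0.415 and 0.368 in PBS 1 to 3 and 0.169, 0.172 and 0.191 in DOX 1 to 3.

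The ratio of Ccn1 to Ccn2 was 0.439, 0.613 and 0.625 in PBS 1 to 3 and 0.37, 0.291 and 0.3 in DOX 1 to 3, so that the lowest PBS library stood above the highest DOX library. For Lum to Dcn the ratio was 0.148, 0.203 and 0.173 in PBS 1 to 3 and 0.0681, 0.0914 and 0.084 in DOX 1 to 3. The ratio of Lama4 to Lama5 was 0.421, 0.49 and 0.672 in PBS 1 to 3 and 0.251, 0.232 and 0.195 in DOX 1 to 3. Ratios of Fbln1 to Fbln5, Sparc to Sparcl1, Efemp2 to Efemp1 and Tnc to Tnxb were also lower in every DOX library than in every PBS library. The ratio of Thbs2 to Thbs1 overlapped between groups, at 0.377, 0.395 and 0.495 in PBS 1 to 3 and 0.544, 0.363 and 0.289 in DOX 1 to 3.

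**Figure D4:**
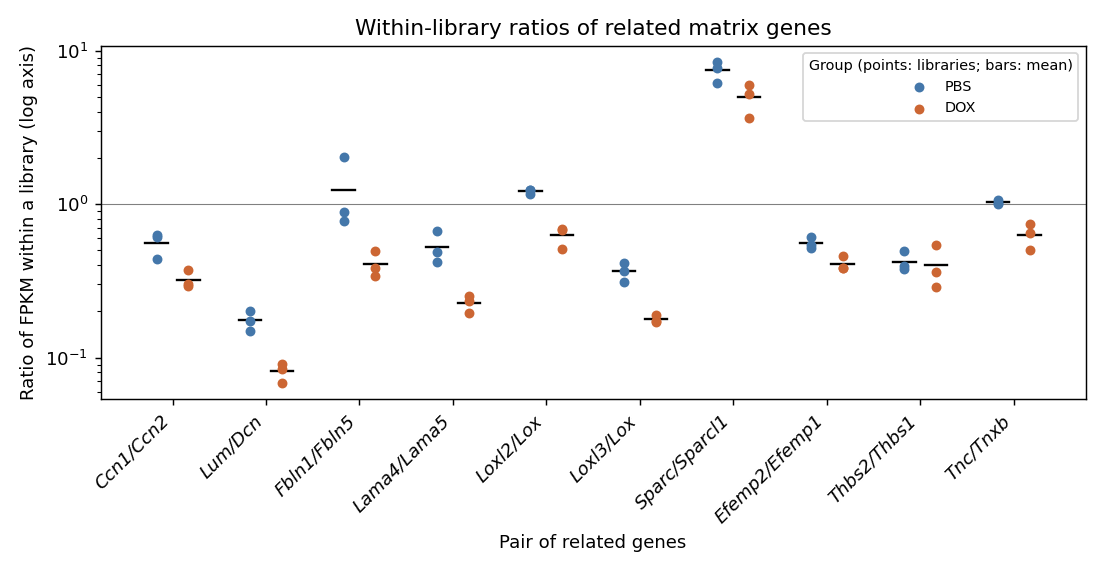
Within-library ratios of deposited FPKM (log axis) for 10 pairs of related matrix genes, with black bars at the group means and a grey line at 1. Pairs were chosen after the values were seen, each with a first gene called lower and a second that was not. DOX points lie below PBS points for 9 pairs and overlap them for Thbs2/Thbs1; Loxl2/Lox runs from 1.16 to 1.24 in PBS and from 0.509 to 0.693 in DOX.

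In bulk tissue, fewer cells of a type and less RNA per cell cannot be told apart. Of 12 tested markers of stellate cells and fibroblasts 6 fell and Pdgfra rose (50% and 8.33%, against 14.0% and 13.5% of all genes tested). Their log2 fold changes were negative for 8 and positive for 4. The falls ran from 4 with PBS 1 omitted to 7 with DOX 1 omitted. The markers summed to 1234 to 1556 CPM in PBS and 541 to 818 CPM in DOX. Most of this sum came from Col1a1, Col1a2 and Col3a1, which are matrix genes themselves. Pdgfrb, a receptor of these cells, fell (log2 fold change -0.45, adjusted p = 0.0168), though not with PBS 1 or DOX 3 omitted (adjusted p = 0.079 with PBS 1 omitted and 0.0631 with DOX 3 omitted; 0.00313 to 0.079 across alternatives), while Des and Reln had log2 fold changes of 0.05 and -0.18 and were not called. Of 8 endothelial markers 3 rose (37.5%) and 0 fell, with sums of 171 to 193 CPM in PBS and 191 to 239 CPM in DOX. With PBS 2 or any DOX library omitted 2 rose, and a limma fit on log2(FPKM + 1) without the filter gave 0. Of 7 hepatocyte markers Serpina1a, Tat and Hnf4a rose and 0 fell, with sums of 85790 to 90146 CPM in PBS and 88404 to 112960 CPM in DOX, and with totals as the only scaling 2 rose and 1 fell. Of 6 bile duct markers only Sox9 fell, or 2 with DOX 3 omitted, and their sums were 761 to 924 and 524 to 762 CPM. Smooth muscle markers (1 of 7 fell, 0 with PBS 3 omitted) summed to 35.4 to 65.7 CPM in PBS and 52.6 to 74.6 CPM in DOX, mesothelial markers (0 of 4 tested called, Upk1b at 15 reads or fewer in all) to 9.10 to 11.3 and 10.2 to 13.1 CPM. Platelet markers (2 of 2 tested rose, Gp9 and Gp1bb at 15 reads or fewer in all) summed to 9.72 to 11.5 and 16.1 to 18.2 CPM, and macrophage markers (1 of 7 rose, 2 with DOX 2 omitted) to 587 to 637 and 672 to 686 CPM. For platelet markers 1 of 2 tested rose with PBS 2, PBS 3 or any DOX library omitted, with totals as the only scaling and with the replicate block, and without the filter 1 of 5 rose and 1 fell. Called shares were near those of all genes for bile duct (16.7% lower), smooth muscle (14.3% lower) and macrophage markers (14.3% higher). Of the tested hepatocyte and platelet markers 42.9% and 100% rose. No listed marker was at 0 in all libraries. The part of any of these cell types in the matrix values was not tested.

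Of 37 tested matrix glycoprotein genes outside the 46, 9 fell and 6 rose (24.3% and 16.2%, against 14.0% and 13.5% of all genes tested). Ccn4, a Wnt-induced CCN protein, fell, with averages of 3.85 ± 1.02 CPM over PBS and 1.05 ± 0.19 CPM over DOX libraries (log2 fold change -1.87, adjusted p = 0.00117; SD, n = 3). Lama1, the embryonic laminin alpha chain, fell as well, with averages of 5.7 ± 0.906 CPM over PBS and 1.85 ± 0.691 CPM over DOX libraries (log2 fold change -1.62, adjusted p = 0.0023; SD, n = 3). Emilin2 and Smoc1 rose by 0.79 and 0.57 on the log2 scale (adjusted p = 0.00143 and 0.00336). Omitting PBS 1, PBS 2 or DOX 1 gave 5 falls, omitting PBS 3 gave 3 and omitting DOX 3 gave 4.

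Collagen-processing enzymes gave 3 falls and 1 rise among 18 tested (16.7% and 5.56%), and the share of falls was near the 14.0% of all genes. P4ha1, the catalytic subunit of collagen prolyl hydroxylase, fell 2.29-fold (adjusted p = 0.00103), and Serpinh1, the collagen chaperone, fell 1.58-fold (adjusted p = 0.00387). Plod2, a lysyl hydroxylase, was lower as well (log2 fold change -0.48, adjusted p = 0.044), and each single omission ended this call, with adjusted p = 0.145 with PBS 1 omitted, 0.0762 with PBS 2 omitted, 0.0914 with PBS 3 omitted, 0.112 with DOX 1 omitted, 0.0771 with DOX 2 omitted and 0.0792 with DOX 3 omitted (0.0155 to 0.145 across alternatives). P4hb, a disulfide isomerase that is also the partner of P4ha1, was higher (log2 fold change 0.40, adjusted p = 0.0342), with omissions that gave adjusted p = 0.114 with PBS 1 omitted, 0.104 with PBS 2 omitted, 0.0839 with PBS 3 omitted and 0.101 with DOX 1 omitted (0.000878 to 0.145 across alternatives). With totals as the only scaling 10 fell (55.6%, against 23.4% of all genes) and 0 rose. Omitting DOX 2 gave 5 falls, and omitting PBS 1, PBS 2, PBS 3 or DOX 1 gave 0 rises.

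Among 28 enzymes of glycosaminoglycan synthesis, which build the sugar chains of proteoglycans, 6 rose and 3 fell (21.4% and 10.7%, against 13.5% and 14.0% of all genes). Ugdh, which makes the glucuronate donor, fell 2.68-fold, with averages of 554 ± 64.2 CPM over PBS and 207 ± 72 CPM over DOX libraries (SD, n = 3; adjusted p = 0.00365), and B4galt7, which extends the linker to the core protein, fell 1.57-fold (adjusted p = 0.00552). Chst15, a chondroitin sulfotransferase, and Ext1, a heparan sulfate polymerase, rose 1.69-fold and 1.51-fold (adjusted p = 0.00123 and 0.00229). With totals as the only scaling 2 rose and 7 fell (25% lower, near the 23.4% of all genes). Omitting DOX 2 gave 5 falls, and omitting DOX 3 gave 3 rises.

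Of 24 matrix receptor genes, 5 rose and 1 fell (20.8% and 4.17%, against 13.5% and 14.0% of all genes). Itgb3, an integrin beta chain that binds vitronectin and fibronectin with its alpha partners, stood at 6.45, 4.45 and 6.16 CPM in PBS 1 to 3 and 17.4, 18.2 and 20.8 CPM in DOX 1 to 3. All DOX libraries were far above PBS (log2 fold change 1.72, SE 0.16, adjusted p = 9.52e-05). Its platelet partner Itga2b had a log2 fold change of 0.56 (adjusted p = 0.0462), and the counts of platelet markers under single omissions are given above. Itga7, a laminin receptor chain, and Sdc2, a heparan sulfate syndecan, rose 1.98-fold and 1.43-fold (adjusted p = 0.00138 and 0.0065), and Ddr1, a collagen-activated kinase, fell 1.44-fold (adjusted p = 0.00764). With totals as the only scaling 4 rose and 5 fell (20.8% lower, against 23.4% of all genes), and omitting DOX 2 gave 3 falls.

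Of 18 genes of the YAP and TEAD pathway, which controls Ccn1 and Ccn2 in many cells, 4 fell and 0 rose (22.2% lower, against 14.0% of all genes). Ankrd1, a target of the pathway, and Ajuba, a scaffold protein that binds its kinases, fell 2.23-fold and 1.5-fold (adjusted p = 0.00851 and 0.00592). Axl (log2 fold change -0.36, adjusted p = 0.0262) had omissions that gave adjusted p = 0.0725 with PBS 1 omitted, 0.101 with PBS 2 omitted, 0.0502 with PBS 3 omitted and 0.1 with DOX 3 omitted (0.00355 to 0.101 across alternatives). Yap1 (log2 fold change -0.33, adjusted p = 0.0449) had omissions that gave adjusted p = 0.117 with PBS 2 omitted, 0.166 with PBS 3 omitted, 0.121 with DOX 1 omitted and 0.141 with DOX 3 omitted (0.00521 to 0.166 across alternatives). With totals as the only scaling 7 fell (38.9%, against 23.4% of all genes), and the limma fits on FPKM gave 6. The replicate block, or omitting PBS 2, PBS 3 or DOX 3, gave 2 falls, and omitting DOX 2 gave 1 rise.

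Some counts may hold reads of overlapping genes, because the treatment of strand is not given in the sources used here. In the GENCODE annotation of GRCm38, exons on the opposite strand cover 23.2% of the exonic bases of Ccn2 (Gm15270), 20.1% of Fbn1 (Gm9913), 11.6% of Loxl3 (Htra2), 9.68% of Prelp (Gm15851), 8.45% of Nid2 (Rtraf), 5.57% of Loxl2 (Gm27177) and 4.57% of Efemp2 (Mus81).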

How the data were processed

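The authors deposited raw counts per gene symbol and FPKM values for 6 liver libraries. Per the labels' protocols RNA came from an RNeasy kit and libraries from a SMARTER mRNA-seq kit. The submitters' processing notes list the builds GRCm38, mm10 and hg38 without a role, and the aligner, counter and strand setting were not given in the sources used here. The deposited FPKM values are the counts divided by gene length and library total. Counts were tested with edgeR 4.0.16 (R 4.3.3, quasi-likelihood, robust) on 14681 genes kept by filterByExpr (minimum count 10, minimum total 15), with TMM factors and group as the only term. The biological coefficient of variation was 0.155. Alternatives used DESeq2 1.42.0, other scalings, no filter, a replicate block, each library left out, and limma 3.58.1 on log2(FPKM + 1) or log2(FPKM + 0.1).

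On simulated counts of this comparison over 14681 genes, of which 200 were changed, 83% of 2-fold and 94% of 4-fold changes were recovered. False calls made up 4.84% of the calls. In the data 27.5% of all genes were called, and the largest fall of a called matrix gene was 1.9-fold. Recovery of changes of that size was not simulated. Members and lists were chosen with earlier results of these data known. Genes given with values in every library are the called members, the 2 of smallest p in a class with none called, the most abundant member of each class and a set of 8 (Fn1, Vtn, Ccn1, Ccn2, Lox, Loxl1, Loxl2 and Loxl3). Further members are given with all values where a library decided their call or for a pair of relatives, and Bgn as the second proteoglycan by level. Of each related list up to 4 called genes of smallest p are named. No table held columns of other samples.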

Additional observations from a re-analysis of the deposited data

How the results depend on the processing

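Of the 16 called matrix genes, 16 kept their sign and 6 passed the threshold under all 14 alternatives. The number of matrix genes called lower ran from 6 to 13 when single libraries were left out, and the number called higher from 0 to 4. The number called higher was 0 with library size alone, 5 with DESeq2, and 1 with limma on log2(FPKM + 1), on log2(FPKM + 0.1), and on log2(FPKM + 1) without the filter. The number called lower was 14 with DESeq2, 21 with library size alone, and 18, 19 and 11 in these limma fits.

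Direction reversed only for genes that were not called. With library size alone the log2 fold changes were -0.112 for Vcan, -0.0198 for Hspg2, -0.105 for Tgfbi and -0.0252 for Vtn. With limma on log2(FPKM + 1) they were -0.0173 for Vcan, -0.015 for Hspg2, -0.105 for Tgfbi and -0.0273 for Vtn, with the same values without the filter, and with limma on log2(FPKM + 0.1) they were -0.0751, -0.0175, -0.106 and -0.0273. With single libraries left out, log2 fold changes ran over -0.311 to 0.102 for Fn1, -0.0701 to 0.183 for Vcan, -0.184 to 0.0215 for Agrn, -0.416 to 0.0684 for Tnxb, -0.0848 to 0.166 for Tgfbi and -0.143 to 0.072 for Ccn2. The causes were not tested.

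The replicate numbers share no stated source, and the deviations of libraries with the same number correlated at 0.0861, -0.0731 and -0.134 across genes, so they were not taken as pairs. With the number as a replicate block, 13 matrix genes were lower and 3 higher. In the low-count genes Aspn and Mfap5 depth limits what can be seen.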

Other observations

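Small leucine-rich proteoglycan genes lie in clusters, and neighbours did not all move alike. In GRCm38.p6 Aspn (positions 49544443 to 49567565 of chromosome 13), Omd (49582462 to 49592612) and Ogn (49608015 to 49624501) follow each other, with Ecm2 (49504810 to 49532789) before them. Omd, osteomodulin, stood at 2.17, 1.57 and 1.76 CPM in PBS 1 to 3 and 4.1, 4.69 and 14.1 CPM in DOX 1 to 3, with DOX 3 far above the other DOX libraries and all DOX libraries above PBS (log2 fold change 2.05, SE 0.49, adjusted p = 0.0204). Omitting a PBS library ended the call, with adjusted p = 0.064 with PBS 1 omitted, 0.091 with PBS 2 omitted and 0.0915 with PBS 3 omitted (2.14e-06 to 0.105 across alternatives). DOX 3 was the highest library for Omd and within the PBS range for its neighbour Ogn. Ecm2 was not called, with 30, 28 and 29 reads in PBS 1 to 3 and 12, 29 and 25 in DOX 1 to 3 (log2 fold change -0.04, adjusted p = 0.957). On chromosome 10 Dcn (97479500 to 97518163) and Lum (97565501 to 97572703) are neighbours whose log2 fold changes were 0.43 and -0.68. On chromosome 1 Optc (133897193 to 133909688), Prelp (133910304 to 133930102) and Fmod (134037254 to 134048280) had log2 fold changes of -0.78, -0.31 and -0.54, and none was called. These loci were singled out after the values were seen.

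Other matrix genes at low levels gave some of the largest changes. Ccn3 stood at 0.207, 0.0456 and 0.187 CPM in PBS 1 to 3 and 0.82, 1.09 and 0.476 CPM in DOX 1 to 3 and Lamc3, a laminin gamma chain, at 2.21, 0.593 and 1.29 CPM in PBS 1 to 3 and 6.88, 4.39 and 9.3 CPM in DOX 1 to 3. All DOX libraries were above all PBS libraries for both (log2 fold change 2.42, adjusted p = 0.0105 for Ccn3 and log2 fold change 2.33, adjusted p = 0.00604 for Lamc3). Within the CCN family, the log2 fold changes were -0.82 for Ccn1, -0.04 for Ccn2, 2.42 for Ccn3, -1.87 for Ccn4 and -0.59 for Ccn5 (adjusted p = 0.0212 for Ccn5, and 0.0643 with PBS 1 omitted, 0.0812 with PBS 3 omitted and 0.0741 with DOX 3 omitted; 0.00552 to 0.0812 across alternatives). Ccn3 had 9, 2 and 8 reads in PBS 1 to 3 and 31, 37 and 15 in DOX 1 to 3. No PBS library reached the minimum count of 10, so Ccn3 passed the filter only through the DOX libraries, where it was higher. Ccn3 and Lamc3 were named after their values were seen.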
